A study of Mus musculus with 8 samples.

Results

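Regulatory T cells of the mouse tongue epithelium were taken from single-cell RNA sequencing of 8 libraries, each a suspension of viable cells from dissected epithelium. A cell was counted as a regulatory T cell when it held 1000 to 5500 genes, at most 30000 UMIs (unique molecular identifiers, 1 per captured RNA molecule) and at most 7% mitochondrial UMIs, with Krt5, Krt14, Krt15, Krt13 and Krt6a summing to under 0.5% of its UMIs. It also had to hold at least 2 UMIs of Cd3e, Cd3d and Cd3g together, at least 1 UMI of Foxp3, and none of Cd8a or Cd8b1. The rule found 568 cells among 42550 barcodes, or 2.25% of the 25199 cells within the limits on genes, UMIs and mitochondrial share. The cells were thus chosen by their own Foxp3, Cd3, Cd8 and keratin UMIs, and the values of those genes are given below as a description. The N libraries held 43 and 110 of them, the E libraries 57 and 105, the Y libraries 45 and 132, and the EY libraries 64 and 12. The letters give the genotype, and a number after them (N1, N2) only names a library. Values listed from N1 to EY1 keep this order.

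All mice carried Krt14-CreERT and LSL-rtTA together with a tetON_H2B-GFP reporter, received tamoxifen into the tongue and doxycycline in the diet, and were sampled 15 days after induction as young adult littermates. N carried nothing more, E also carried tetON_E6-E7 (the E6 and E7 oncogenes of a human papillomavirus), Y carried tetON_YAP1S127A (a constitutively active YAP1), and EY carried both, with 2 libraries per genotype. The Krt14 promoter acts in basal epithelial cells, so the transgenes were designed to be switched on in the epithelium and not in T cells. Where a difference between genotypes in the T cells comes from was not tested. The label of N2 names 2 animal numbers, so this library may pool animals.

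Regulatory T cells are CD4 T cells that restrain other immune cells. The transcription factor Foxp3 maintains their identity, and a high density of the interleukin-2 receptor α chain (Il2ra, CD25) and of the inhibitory receptor Ctla4 is part of how they act. In barrier tissues many of them carry an additional program with the interleukin-33 receptor Il1rl1 (ST2) and the growth factor amphiregulin (Areg), which is known for its part in tissue repair, and the integrin αE (Itgae, CD103), which binds E-cadherin on epithelial cells.

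Before the results, 4 facts of the libraries bear on them. The libraries held 2916 to 8139 barcodes and between 46483469 and 102427359 UMIs, and pairs of libraries shared 2 to 19 barcodes. Yap1, the mouse counterpart of the Y transgene, is counted together with any transgene reads that align to it. Yap1 stood at 165 to 482 CPM (counts per 1000000 UMIs) in the epithelial cells of the 4 libraries labelled Y and EY. It stood at 32.4 to 43.9 CPM in the other 4, and the regulatory T cells held 16 Yap1 UMIs in all. Cells counted here as neutrophils held at least 20 UMIs of S100a8 and S100a9 together and no Cd3 UMI. They made up 61.3% of the keratin-low cells of EY1 and 36.7% of those of EY2, against 0.140% to 9.39% in the other 6 libraries. This gate overlaps with that of macrophages (at least 5 UMIs of Lyz2, C1qa and C1qb, no Cd3 UMI). EY1 had 998 and 861 such cells among 1629 keratin-low cells, so 61.3% is no share of neutrophils alone. Every one of the 64 regulatory T cells of EY1 held at least 2 UMIs of marker genes of another cell type. EY2 had too few regulatory T cells for a test on genes (at least 20 were asked for), so EY rests on EY1 alone in every comparison of expression.

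The label regulatory T cell was checked against its markers. Foxp3 lies on chromosome X (mm10, 7573644 to 7595245, plus strand). It was found at 1470 UMIs in the 568 cells, with 194 cells at 1 UMI, 147 at 2 and 227 at 3 or more. The share of other cells with a Foxp3 UMI was 2.09% among T cells with a Cd8 UMI (68 of 3248, with 0.839% to 5.06% in single libraries and a median depth of 5724 UMIs in the 3115 without Foxp3 and Cd4), 0.585% among epithelial cells (median 14943 UMIs) and 0.0569% among macrophages, and the regulatory T cells themselves had a median depth of 4600 UMIs and 1800 genes.

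The other markers were already frequent in cells with a single Foxp3 UMI. Il2ra was found in 71.6% of the cells with 1 Foxp3 UMI, 72.8% of those with 2 and 76.7% of those with 3 or more, against 25.3% of the 565 Cd8-negative T cells that held Cd4 and no Foxp3. Ikzf2 (Helios, a transcription factor of thymus-derived regulatory T cells) was found in 89.2%, 94.6% and 94.3% against 20.4%. Ctla4 was found in 90.7%, 91.2% and 93.0% against 57.7%. Cd4 itself was captured in 42.8%, 51.0% and 57.3% of the cells with 1, 2 and 3 or more Foxp3 UMIs, and the rule did not ask for it. The median depth of these cells rose with the number of Foxp3 UMIs, from 3945.5 over 4285 to 5626 UMIs.

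**Figure D1:**
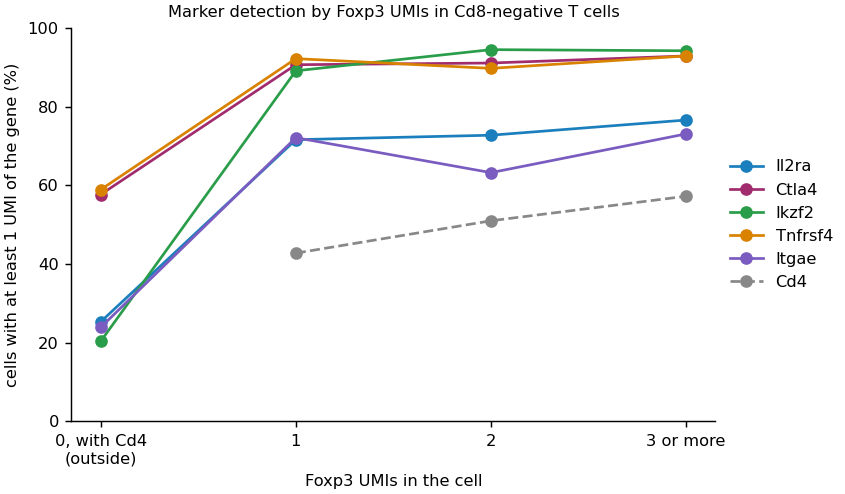
Share of cells (%) with at least 1 UMI of each marker by the number of Foxp3 UMIs in the cell, over all libraries; the point at 0 shows the 565 Cd8-negative T cells with Cd4 and without Foxp3, which are outside the rule. Il2ra, Ctla4, Ikzf2, Tnfrsf4 and Itgae stand far higher at 1 Foxp3 UMI than at 0 and change little from 1 to 3 or more, while Cd4 (dashed) goes from 42.8% to 57.3%.

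Cells just outside the limits were few. The limit on genes kept out 25 cells with 800 to 999 genes, the upper limits 7, the mitochondrial limit 12 cells of 7% to 10%, the keratin limit 2 and the Cd3 limit 10 cells with 1 Cd3 UMI. A further 40 T cells held Foxp3 with 1 Cd8 UMI, and 28 held it with more. Ikzf2 was found in 100% of the first of these and in 67.9% of the second.

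RNA of other cell types was found in many of the cells. Of 12 keratinocyte genes all 12 were found, with at least 2 UMIs in 520 of the 568 cells and a summed level of 545 to 2038 CPM over the 7 libraries with enough cells. The dendritic and Langerhans cell list (9 of 10 found, Clec9a at 0) summed to 436 to 3712 CPM, with 2 or more UMIs in 305 cells, and the macrophage and monocyte list (10 of 10 found) to 32.4 to 1264 CPM, with 54 cells. The neutrophil list (10 of 10 found) summed to 8608 CPM in EY1 and to 0 to 526 CPM in the other 6 libraries.

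The lists of other lymphocytes were at 299 CPM or lower in every library. Gamma-delta T cell genes (7 of 7 found) summed to 0 to 31.8 CPM, and CD8 and NK cell genes (7 of 10 found, with Cd8a and Cd8b1 at 0 by the rule and Gzmk at 0) to 69.5 to 299 CPM. Of 6 B cell genes, Ms4a1 and Jchain were at 0 in every cell, and the sum was 116 to 250.1 CPM. Hemoglobin and other red blood cell genes (5 of 5 found) summed to 21.6 to 387 CPM. The part of this RNA in the results below was not tested, except where values without the cells that hold most of it are given.

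How large a part of the T cells the regulatory T cells formed differed widely between libraries of 1 genotype. Of all T cells, they were 9.64% and 14.9% in the N libraries, 20.2% and 16.9% in E, 2.10% and 20.2% in Y, and 20.9% and 4.80% in EY. The 95% exact (Clopper-Pearson) intervals, which cover counting error only, were 1.53% to 2.80% for Y1 and 17.1% to 23.4% for Y2. The 2 Y libraries thus differed far beyond counting error, and Y1 held 2146 T cells against 655 in Y2.

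A denominator without CD8 T cells narrowed the spread between the Y libraries. Of Cd8-negative T cells, the shares were 12.4% and 31.6% for N, 33.7% and 29.2% for E, 18.8% and 25.7% for Y, and 43.2% and 16.4% for EY. Of all keratin-low cells, they were 6.01% and 7.76% in N, 7.28% and 11.0% in E, 1.12% and 10.6% in Y, and 3.93% and 1.19% in EY. On this last scale the N and E libraries lay between 6.01% and 11.0%, and 3 of the 4 libraries with the YAP transgene lay below all 4 libraries without it. The rule needs a captured Foxp3 UMI, and depth differed between libraries. The median UMIs of Cd8-negative T cells were 2816 and 6077.5 in N, 3499 and 7550 in E, 4964 and 3753 in Y, and 5888.5 and 2945 in EY. Of these cells, the deeper library had the higher share in N and EY and the lower share in E and Y. The part of depth in the spread between libraries was not tested.

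**Figure D2:**
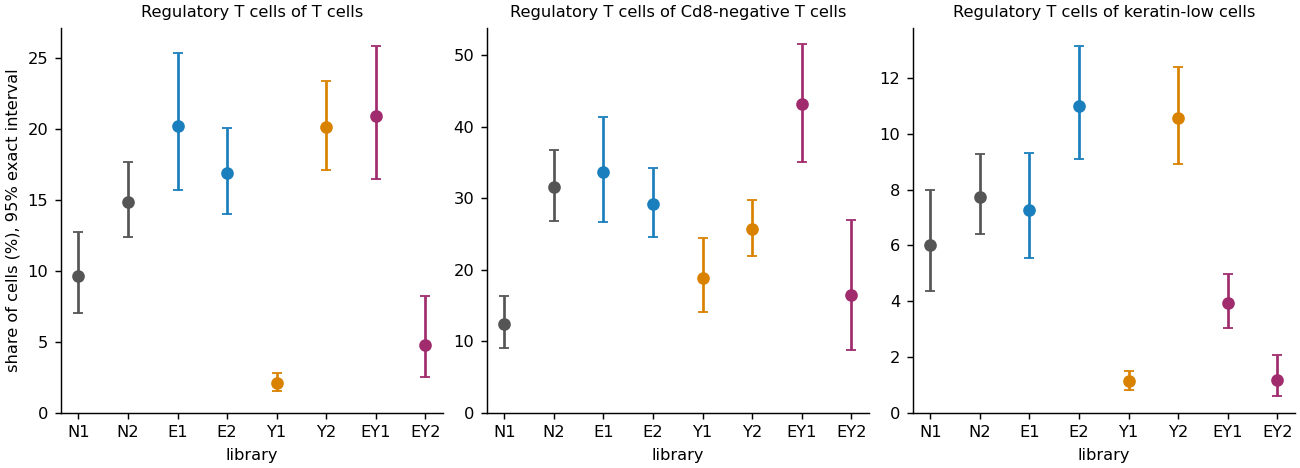
Regulatory T cells as a share (%) of T cells, of Cd8-negative T cells and of keratin-low cells in each of the 8 libraries, with 95% exact binomial intervals. The 2 libraries of Y lie far apart in the first panel (2.10% and 20.2%), as do the 2 of EY (20.9% and 4.80%).

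No difference in share with a transgene passed a test. Over 4 libraries with the YAP transgene the mean share of T cells was 11.99% ± 9.93 (SD, n = 4), against 15.4% ± 4.43 without it (exact permutation test, two-sided, all 70 labellings, p = 0.543, adjusted over 6 tests 0.814). With E6-E7 it was 15.7% ± 7.48 (SD, n = 4) against 11.7% ± 7.70 (exact permutation p = 0.429, adjusted 0.814). The lowest of the 6 p-values, 0.171 by the exact permutation test, belonged to the keratin-low denominator and YAP (4.20% ± 4.45 against 8.01% ± 2.13, SD, n = 4 each, adjusted p = 0.771). With 2 libraries against 2 no p under 0.33 can be reached, so single genotypes were not tested.

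The regulatory T cells were next set against 2 other T cell classes of the same libraries: 565 Foxp3-negative CD4 T cells, and 3115 CD8 T cells with no Foxp3 and no Cd4. UMIs were summed per library and class in the 7 libraries with enough cells, and edgeR's quasi-likelihood test was fitted with the library as a block. The CPM printed for regulatory T cells were scaled among these cells alone, and those of the other classes in the joint fit. This puts the printed levels of regulatory T cells somewhat higher than on the joint scale. The log2 differences between classes come from the joint fit. Against Foxp3-negative CD4 T cells 848 of 6721 genes were called at an adjusted p under 0.05 (12.6%), 378 higher (5.62%) and 470 lower (6.99%). Against CD8 T cells 1893 of 7698 genes were called (24.6%), 947 higher (12.3%) and 946 lower (12.3%). The rule's own genes and Cd4 were left out of these calls. The Foxp3-negative class can hold regulatory T cells whose Foxp3 was not captured, and in it 25.3% of cells held Il2ra. Genes of CD8 and NK cells summed to 181 to 1155 CPM in this class, against 69.5 to 299 CPM in regulatory T cells. Gamma-delta T cell genes summed to 12.4 to 206 CPM against 0 to 31.8 CPM. The part of other lymphocytes or their RNA in the differences below was not tested.

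Genes of regulatory T cell identity were higher almost throughout. Of 13 tested genes of the identity list, 12 rose and 0 fell against Foxp3-negative CD4 T cells, with a median log2 fold change of 1.45 against -0.02 over all genes tested, and 11 rose and 0 fell against CD8 T cells (median 2.41). Ikzf2 stood at 1321 and 1440 CPM in the N libraries, 1725 and 1549 in those of E, 1140 and 1020 in those of Y, and 1253 in EY1. No library of the Foxp3-negative CD4 T cells reached this range (83.6 to 368 CPM, median 161), and the log2 difference was 2.79 (SE 0.18, adjusted p = 2.9e-09).

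Il2ra stood at 318, 336, 621, 507, 563, 559 and 967 CPM in the same order of libraries, lowest in both N libraries and highest in EY1. The Foxp3-negative CD4 T cells lay between 60.2 and 199 CPM, below every regulatory T cell library, with a log2 difference of 1.94 (SE 0.16, adjusted p = 6.4e-08). Ctla4 ranged from 846 to 1307 CPM against 228 to 532 CPM and rose by 1.45 (SE 0.15, adjusted p = 8.2e-07). Ikzf4 (Eos, a Foxp3 partner) rose by 2.46 and Izumo1r (folate receptor 4) by 1.81. Nrp1, a surface protein used to mark thymus-derived regulatory T cells, was the tested member without a call in either comparison (log2 -0.49, SE 0.20, adjusted p = 0.15 against Foxp3-negative CD4 T cells).

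Receptors of the tumor necrosis factor family, which costimulate T cells, were higher as well. Tnfrsf4, Tnfrsf9, Tnfrsf18 and Tnfrsf1b stand on both the identity and the costimulatory list, so the counts of these lists are not independent. Other genes, such as Ctla4, Icos and Il10, are shared between lists too. Of 10 costimulatory receptors 7 rose and 2 fell against Foxp3-negative CD4 T cells. Tnfrsf9 (4-1BB) stood at 707, 567, 630, 622, 790, 785 and 1454 CPM from N1 to EY1, against 55.2 to 223 CPM in the Foxp3-negative class, a log2 difference of 2.47 (SE 0.19, adjusted p = 1.7e-08). Tnfrsf4 (OX40) rose by 1.66 and Tnfrsf18 (GITR) by 1.15, Cd27 by 1.90 and Icos by 0.41. The 2 members that fell were Cd28, the main costimulatory receptor of naive T cells, by 0.76 and Cd226 by 1.43. The same 2 receptors fell against CD8 T cells, by 0.62 and 2.49. Of the checkpoint list 3 of 7 tested rose, the receptors Ctla4 and Havcr2 and the transcription factor Tox, while Pdcd1 (PD-1) showed no difference past the test from Foxp3-negative CD4 T cells (log2 0.03, SE 0.19) and was lower than in CD8 T cells (fell by 1.46, SE 0.28, adjusted p = 0.00098).

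The tissue repair list split into genes of high contrast and genes shared with other CD4 T cells. Of 13 tested members 10 rose and 0 fell against Foxp3-negative CD4 T cells (median 0.68), and 12 of 14 rose against CD8 T cells (median 1.69). Areg stood at 650, 619, 699, 831, 1122, 1410 and 878 CPM from N1 to EY1. The 7 values of Foxp3-negative CD4 T cells ran from 74.3 to 263 CPM and those of CD8 T cells from 4.21 to 106 CPM, so the classes did not overlap, with log2 differences of 2.60 (SE 0.17, adjusted p = 3.0e-09) and 4.45 (SE 0.39, adjusted p = 3.7e-07).

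Il1rl1 stood at 56.5, 124, 181, 93.3, 117, 186 and 311 CPM, lowest in N1 and highest in EY1. In Foxp3-negative CD4 T cells it ran from 0 to 40.1 CPM, and the log2 difference was 2.38 (SE 0.27, adjusted p = 2.7e-06). Klrg1, an inhibitory receptor of differentiated lymphocytes, ran from 84.0 to 214 CPM against 0 to 55.2 CPM and rose by 2.59 (SE 0.23, adjusted p = 1.6e-07). The chemokine receptor Ccr8 rose by 1.26 (SE 0.25, adjusted p = 0.0017) and the transcription factors Prdm1 (Blimp-1), Maf and Batf by 1.49, 0.68 and 0.56.

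The transcription factors Gata3 and Rora, which act upstream of this program, did not separate the 2 CD4 classes. Gata3 ran from 115 to 191 CPM in regulatory T cells and from 135 to 207 CPM in Foxp3-negative CD4 T cells (log2 -0.23, SE 0.12, adjusted p = 0.27), and Rora differed by 0.07 (SE 0.12, adjusted p = 0.84). Both were above CD8 T cells, Gata3 by 0.84 (SE 0.14, adjusted p = 0.00031) and Rora by 1.10. Pparg, known from adipose tissue regulatory T cells, was too low to be tested (0 to 13.7 CPM).

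Suppressive effectors were carried unequally. Of 10 tested, 6 rose and 0 fell against Foxp3-negative CD4 T cells (median 1.14), and 4 rose and 2 fell against CD8 T cells (median 0.23). Il10, the anti-inflammatory cytokine, stood at 155, 163, 129, 128, 113, 107 and 150 CPM from N1 to EY1, a narrow range, against 1.23 to 47.3 CPM in Foxp3-negative CD4 T cells and 0 to 2.34 CPM in CD8 T cells. The log2 differences were 3.12 (SE 0.31, adjusted p = 7.7e-07) and 6.92 (SE 0.28, adjusted p = 1.3e-10), and Il10 was above both classes in 7 of 7 libraries.

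Gzmb, the cytotoxic protease granzyme B, stood at 191, 520, 819, 378, 596, 203 and 1156 CPM, with a spread of 552 ± 347 (SD, n = 7). It was above Foxp3-negative CD4 T cells in 7 of 7 libraries (9.63 to 189 CPM, log2 2.81, SE 0.29, adjusted p = 9.1e-07) and below CD8 T cells in 7 of 7 (325 to 1755 CPM, fell by 0.85, SE 0.12, adjusted p = 3.9e-05). Itgb8, the integrin chain that activates latent TGF-β, rose by 2.97 (SE 0.38, adjusted p = 1.5e-05) at 29.2 to 141 CPM against 2.07 to 27.6 CPM. Tgfb1 itself differed by 0.10 (SE 0.13, adjusted p = 0.77), with 198 to 341 CPM against 177 to 289 CPM. Ebi3 rose by 1.13 and Entpd1 (CD39) by 1.14, while Nt5e (CD73) showed 0.17 (SE 0.19, adjusted p = 0.68) and Lag3 1.36 (SE 0.45, adjusted p = 0.052).

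**Figure D3:**
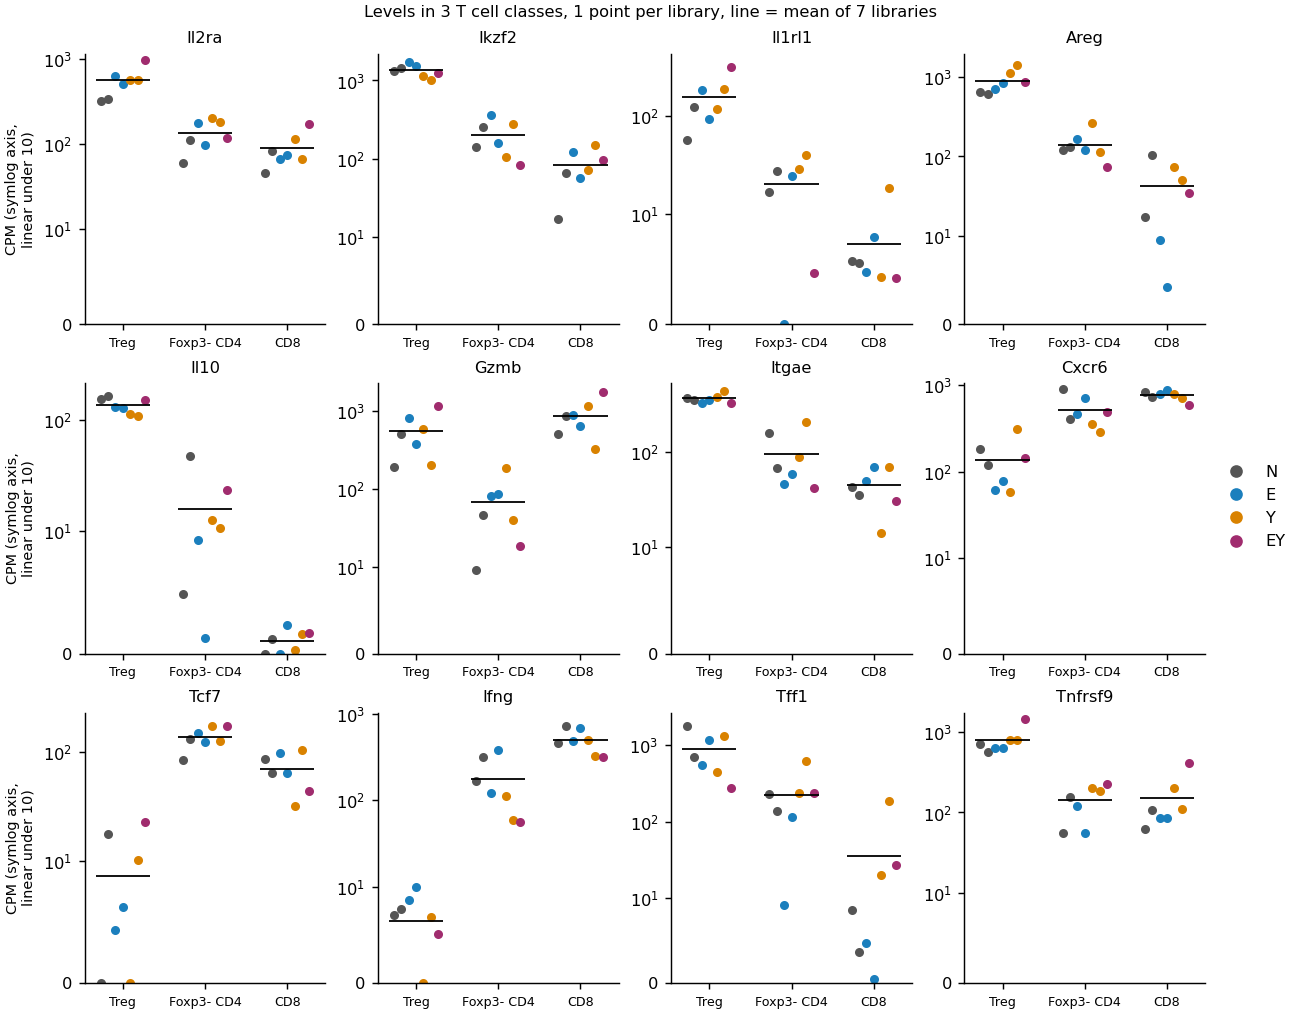
Level (CPM, symmetric log axis that is linear under 10) of 12 genes in regulatory T cells, Foxp3-negative CD4 T cells and CD8 T cells, with 1 point per library for 7 libraries and a line at their mean. Il2ra, Ikzf2, Il1rl1, Areg, Il10, Itgae and Tnfrsf9 are higher in every regulatory T cell library than in the same library's other classes, Gzmb lies between the other classes, and Cxcr6, Tcf7 and Ifng are lower, except that Cxcr6 in Y2 is above the Foxp3-negative CD4 T cells of Y2.

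Genes of tissue retention and of circulation did not move as a block. Itgae stood at 367, 350, 323, 353, 377, 438 and 328 CPM from N1 to EY1, nearly level across genotypes, against 41.8 to 204 CPM in Foxp3-negative CD4 T cells (log2 1.94, SE 0.19, adjusted p = 6.1e-07). Of 15 homing genes tested, 8 rose and 3 fell, and the 3 that fell were Cxcr6, Cxcr3 and Itgb1. Cxcr6, a receptor of tissue-resident effector T cells, stood at 58.5 to 309 CPM against 291 to 917 CPM and fell by 2.03 (SE 0.27, adjusted p = 2.2e-05), lower in 6 of 7 libraries with Y2 as the exception. Ccr2 rose by 1.26 (SE 0.15, adjusted p = 7.2e-06) and Ccr6 by 0.49, while Ccr4 showed -0.27 (SE 0.23, adjusted p = 0.57).

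Among genes of resting lymphoid T cells, Ccr7 (a lymph node homing receptor) rose, and Tcf7, Klf2 and Bcl2 fell. Tcf7 (TCF-1, a factor of naive and memory T cells) ran from 0 to 22.9 CPM against 84.2 to 172 CPM and fell by 3.73 (SE 0.27, adjusted p = 9.5e-09). The survival gene Bcl2 ran from 0 to 18.3 CPM against 31.3 to 223 CPM and fell by 3.86 (SE 0.32, adjusted p = 5.1e-08).

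Effector cytokines were nearly absent. Of 8 tested, 7 were lower than in Foxp3-negative CD4 T cells and 0 higher. The fitted median was -5.54, and -4.80 with Il17f and Il2 set at the limit that 3 counts allow. Both were at 0 in the regulatory T cells of all 7 libraries of the fit. The 12 cells of EY2, which were outside the fit, held 5 UMIs of Il17f (104 CPM, without TMM scaling), 2 of Il17a (41.8 CPM) and 0 of Il2. Ifng stood at 0 to 9.96 CPM against 55.7 to 383 CPM and fell by 4.85 (SE 0.26, adjusted p = 1.4e-10). Il2, the growth factor that regulatory T cells take up and do not make, was at least 26.7-fold lower against a floor of 3 counts over the 7 libraries. Il17a was lower (fell by 2.60) but not zero, with 84.8 CPM in N1, 8.91 in N2, 29.9 in E2, 15.3 in Y2 and 0 in the other 3 libraries of the fit. Tnf showed -0.64 (SE 0.24, adjusted p = 0.091). The lineage factor Tbx21 (T-bet) fell by 3.27, and Maf and Ahr rose.

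Genes of antigen receptor signalling leaned lower. Of 10 tested genes of the receptor complex, 5 fell and 0 rose against Foxp3-negative CD4 T cells (Lck and Lat among them, Trbc2 by 0.36 and Zap70 by 0.71), and of 13 immediate early genes 7 fell and 1 rose, Fos by 1.16 and Egr1 by 0.75. The immediate early gene that rose was Zfp36. Of 16 cell cycle genes 0 were called against either class by edgeR and by DESeq2, with 1 at an unadjusted p under 0.05 in each comparison and medians of 0.21 and 0.06. Mki67 stood at 118 to 340 CPM in regulatory T cells and 41.8 to 270 CPM in Foxp3-negative CD4 T cells (log2 0.26, SE 0.26, adjusted p = 0.63). Of 14 genes of interleukin-2 signalling, Il2ra and Il2rb rose and Cish and Bcl2 fell.

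The rule for named genes (the largest changes with the same sign in every library) added genes outside the lists. Highest by log2 fold change against Foxp3-negative CD4 T cells was Actg2, a smooth muscle actin, at 14.1 to 43.9 CPM against 0 to 4.91 CPM (3.47, SE 0.55, adjusted p = 0.00016). Rln3, the neuropeptide relaxin-3, ran from 50.9 to 296 CPM, highest in E2, against 2.07 to 46.0 CPM (2.70, SE 0.35, adjusted p = 1.7e-05). Tnfrsf8 (CD30) rose by 2.68, Rapsn by 2.73, Csrp2 by 2.60 and Gm28112 by 2.60. Against CD8 T cells Pcsk1, a prohormone convertase, rose by 6.60 at 7.31 to 134 CPM against 0 to 0.799 CPM. The largest falls against Foxp3-negative CD4 T cells beside Ifng were Fasl (log2 -5.19), Apol7e (-4.48), Klrk1 (-4.13), Klrd1 (-3.88) and Bcl2, of which Fasl, Klrk1 and Klrd1 belong to cytotoxic lymphocytes. Against CD8 T cells they were Klrd1 (-6.96), Fasl (-6.82), Ccl1 (-6.78), Crtam (-6.71), Wdr95 (-6.69) and Ifng (-6.33).

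Within the population the programs overlapped only in part. To remove differences in depth, each cell was thinned to 2000 UMIs, which left out 11 of the 568 cells. Areg was then found in 43.6% of 557 regulatory T cells, 11.2% of Foxp3-negative CD4 T cells, 4.92% of CD8 T cells and 2.70% of epithelial cells. Epithelial cells stand for a class that should lack T cell transcripts, at a median of 14943 UMIs before thinning. Il1rl1 was found in 21.4%, 2.85%, 0.964% and 0.0143%, Itgae in 49.2%, 17.3%, 4.21% and 0.100%, and Il10 in 13.8%, 1.60%, 0.450% and 0.0143% of the same classes. Gzmb was found in 33.4% of regulatory T cells, 6.05% of Foxp3-negative CD4 T cells and 50.3% of CD8 T cells. Without thinning the shares in regulatory T cells were 55.3% for Areg, 30.1% for Il1rl1, 70.2% for Itgae, 21.5% for Il10 and 44.2% for Gzmb.

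These shares varied between libraries. Over the 7 libraries Areg was found in 39.8% to 63.6% of thinned cells, Il1rl1 in 11.4% to 34.9%, Klrg1 in 11.1% to 29.1%, Gzmb in 16.8% to 54.0% and Il10 in 10.3% to 18.2%. Gzmb thus had the widest range of these and Il10 the narrowest. Among the 557 thinned cells, 58 held both Il1rl1 and Areg, 35 both Il1rl1 and Klrg1, and 41 both Il10 and Gzmb. Areg was found in 48.7% of cells with Il1rl1 and 42.2% of those without. Klrg1 was found in 29.4% of cells with Il1rl1 and 17.6% of those without, and Gzmb in 53.2% of cells with Il10 and 30.2% of those without. These cells come from 8 libraries that differ in the genes concerned, so the co-detection is a description with no test.

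The E6-E7 comparison asked whether regulatory T cells differed where the epithelium expressed the viral oncogenes. E against N gave 3 calls of 6690 genes (0.0448%), all higher, and they are interferon-stimulated genes: Isg15, a ubiquitin-like modifier, Bst2 (tetherin, which holds budding virus at the cell surface), and Usp18, which removes Isg15 from proteins. The unadjusted p was under 0.05 for 250 genes. Interferons act on promoters with a repeated GAAA element. It was searched on both strands as 2 copies of GAAA with any 2 bases between them, which read as 2 copies of TTTC on the other strand, and overlapping matches were allowed. In the 250 bases upstream of RefSeq transcription starts (GRCm38.p6) this pattern occurred in 6 of 10 matched genes of the interferon-stimulated list and in 821 of 27025 genes overall (3.04%). Usp18 was not among the matched genes. Isg15 held 3 such matches, and Bst2 and Ifit1 held 2 each. Stretches of 30 bases are shown for these genes, on which the results below turn, 5′ to 3′ on the strand of the gene. They have the first match alone in capitals, so lower-case bases can belong to a further match. They lie at chr4:156200877-156200906 (minus strand), chr8:71537583-71537612 (minus) and chr19:34640775-34640804 (plus). The capitals begin 78, 130 and 104 bases upstream of the transcription start.
Isg15: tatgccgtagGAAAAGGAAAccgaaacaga
Bst2: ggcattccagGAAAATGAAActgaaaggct
Ifit1: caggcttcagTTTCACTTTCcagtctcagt
A match describes the letters of the promoter and is not a measured binding site.

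Isg15 stood at 49.5 and 58.6 CPM in the N libraries, 798 and 426 in E, 292 and 104 in Y, and 463 in EY1. E lay above N without overlap, with a log2 difference of 3.42 (SE 0.48, adjusted p = 0.0378). The Isg15 UMIs of E were spread over 33 cells in E1 and 47 in E2, at most 32 and 47 in 1 cell. Bst2 stood at 84.8 and 81.5 CPM in N, 517 and 278 in E, 219 and 205 in Y, and 145 in EY1, with a log2 difference of E to N of 2.23 (SE 0.33, adjusted p = 0.0378). Usp18 had 0 UMIs in both N libraries, 23 in 10 cells of E1 and 41 in 21 cells of E2, which puts E at least 23.2-fold higher against a floor of 3 counts over the N libraries (adjusted p = 0.0378).

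The rest of the list moved less surely. Of 13 interferon-stimulated genes tested, 3 were called and 13 had a positive fold change in E against N, with a median log2 of 2.55 (the same with Usp18 at its limit) against 0.00 over all genes. Summed over the list, N1 and N2 stood at 1915 and 2889 CPM, E1 and E2 at 13157 and 6211, Y1 and Y2 at 5271 and 4833, and EY1 at 4931. All libraries with a transgene thus stood above both N libraries. Ifi27l2a, an interferon-inducible mitochondrial protein, alone made up 9263 CPM of the sum in E1 and 3651 CPM in E2. The 3 calls were sensitive to the samples: without N1, N2, E1 or EY1 there were 0, without E2 there were 7, and without Y1 or Y2 there were 38 and 35. Without 6 cells of mixed content, described with the YAP results, there were also 0 (each adjusted p 0.0516, Isg15 at 3.45 and Bst2 at 2.23), and DESeq2 gave 2.

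Over all 7 libraries, with E6-E7 and YAP as terms, Ifit1, an interferon-induced RNA-binding protein, was the single call for E6-E7 among 5791 genes (0.0173%, with 303 genes at an unadjusted p under 0.05). It stood at 0, 34.4, 237, 179, 43.9, 18.8 and 181 CPM from N1 to EY1, so that the 3 libraries with E6-E7 lay above the 4 without (log2 2.82, SE 0.39, adjusted p = 0.0491). Of 13 interferon-stimulated genes 13 had a positive fold change here as well, with a median of 1.58, and 12 had an unadjusted p under 0.05. Ifit1 was not called in 5 of 7 fits that left out 1 library: without E1, Y2 or EY1 there were 0 calls, and without N2 or E2 there were 2 and 1, of other genes. Leaving out Y1 gave 19 calls, Ifit1 among them. A comparison of E and EY with N shares the N libraries, so the 2 sets of values are given side by side: Isg15 differed from N by 3.42 in E and by 3.10 (SE 0.53, adjusted p = 0.0175) in EY1.

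Isg15 was high in the other T cells of E as well. It stood at 809 and 578 CPM in Foxp3-negative CD4 T cells of E1 and E2, against 101 and 21.7 CPM in N, and at 1058 and 674 CPM in CD8 T cells of E1 and E2, against 115 in each N library. In Foxp3-negative CD4 T cells the summed list too was above both N libraries in every library with a transgene. In CD8 T cells it stood at 1314 and 1599 CPM in N, 6996 and 4637 in E, 1494 and 3475 in Y, and 1167 in EY1. After thinning, Isg15 was found in 23.3% of regulatory T cells and 31.4% of epithelial cells. In the test of whether the E6-E7 effect differed between regulatory and Foxp3-negative CD4 T cells, 0 of 14 interferon-stimulated genes were called by edgeR or DESeq2 (1 at an unadjusted p under 0.05, median difference -0.12). Over all genes 3 of 6721 were called (0.0446%, with 247 at an unadjusted p under 0.05), 26 without N2, 2 without N1 or Y1 and 0 without EY1.

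**Figure D4:**
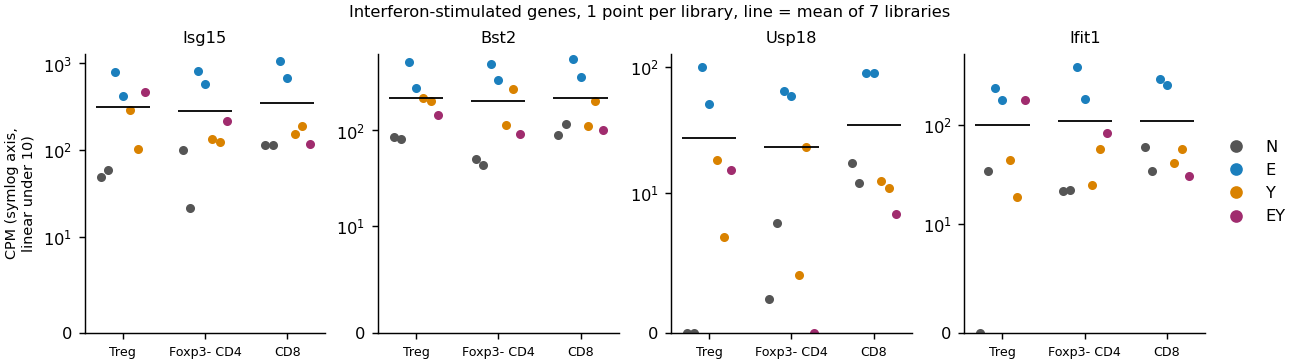
Level (CPM, symmetric log axis that is linear under 10) of 4 interferon-stimulated genes in 3 T cell classes, with 1 point per library for 7 libraries and a line at their mean. Both E libraries lie above both N libraries for each gene in all 3 classes.

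The YAP comparison asked the same of the YAP transgene, alone or with E6-E7. It gave 19 calls of 5791 genes (0.328%, 18 higher and 1 lower), with 513 genes at an unadjusted p under 0.05. Of the 19, 13 stood over 5 times higher in epithelial cells, macrophages or neutrophils than in regulatory T cells, C1qa (a complement gene of macrophages), Krt17 (a keratin) and Chil3 among them. Of the C1qa UMIs in Y2, 67 of 76 came from 1 cell. The rule for named genes left 6, and some of these were also higher in another class. Bnip3 and Marcksl1 stood at 4.46 times and Mxd1 at 3.08 times the regulatory T cell level in neutrophils. In epithelial cells Gadd45g stood at 2.56 times, Scin at 1.19 times and Nav2 at 0.121 times that level. The part of RNA from those cells in the 6 calls was not tested.

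Bnip3, a mitochondrial protein that is induced by low oxygen, stood at 14.1 and 19.1 CPM in N, 12.9 and 9.96 in E, 54.8 and 85.3 in Y, and 76.4 in EY1, so the 3 libraries with YAP lay above the 4 without (log2 2.32, SE 0.33, adjusted p = 0.0246). Marcksl1, an actin-binding protein, stood at 14.1, 26.7, 17.2, 19.9, 98.7, 92.1 and 63.6 CPM from N1 to EY1 (1.87, SE 0.27, adjusted p = 0.0246). Mxd1, a partner of Max, stood at 134, 195, 259, 263, 450, 316 and 649 CPM (1.21, SE 0.19, adjusted p = 0.0246). Gadd45g rose by 2.63 and Scin by 4.30, but on 94 and 47 UMIs in all, with 46 of the Gadd45g UMIs in EY1. For Scin, 13 of 15 UMIs in Y1, 9 of 18 in Y2 and 5 of 11 in EY1 lay in 1 cell each.

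Nav2, a cytoskeletal protein best known from neurons, was the single gene called lower. It stood at 77.7 and 72.6 CPM in N, 60.4 and 62.2 in E, 14.6 and 29.0 in Y, and 12.7 in EY1, and fell by 1.82 (SE 0.32, adjusted p = 0.0298). The Nav2 level in Foxp3-negative CD4 T cells was 18.4 to 59.0 CPM with no such order of genotypes. Bnip3 was higher with YAP in the other classes too, at 23.2 to 44.3 CPM against 0 to 9.63 CPM in Foxp3-negative CD4 T cells and 21.7 to 22.3 CPM against 2.38 to 7.96 CPM in CD8 T cells. Bnip3 was the single call among 13 hypoxia and glycolysis genes, of which 12 had a positive fold change (median 0.55 against -0.01 over all genes). The lists of regulatory T cell identity and tissue repair gave 0 calls for YAP by edgeR (6 and 4 of 13 genes at an unadjusted p under 0.05, and 1 and 0 calls by DESeq2), with medians of 0.26 and -0.22.

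The YAP calls changed when 6 cells of mixed content were left out. In 6 of the 568 cells (1 in E1, 1 in Y1, 1 in Y2 and 3 in EY1) at least 20 UMIs came from Lyz2, C1qa, C1qb, Cd79a, S100a8, S100a9, Ccl22 and Fscn1, genes of macrophages, B cells, neutrophils and dendritic cells. These 6 held 2.90% of all UMIs of the population and 75.6% of its UMIs from those 8 genes. Without them, a choice made after seeing the data, the YAP comparison gave 0 calls by edgeR (433 genes at an unadjusted p under 0.05), and the 6 named genes kept their direction with adjusted p from 0.053 to 0.100. Their fold changes were then close to those with all cells, at 2.22 for Bnip3, 1.66 for Marcksl1, 1.19 for Mxd1, 2.75 for Gadd45g, 4.24 for Scin and -1.79 for Nav2. With all cells it gave 0 calls without N1, E2 or EY1, 36 without N2 and 35 without Y2.

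Y against N gave 0 calls of 6690 genes by edgeR (0.0%), with 394 genes at an unadjusted p under 0.05 and 1 call by DESeq2. EY against N gave 45 calls (0.673%, 44 higher, 0.658%, and 1 lower, 0.0149%, with 612 at an unadjusted p under 0.05), and it sets 1 library against 2, so that EY1 is assumed to vary like the other groups. There were 0 calls without N2, 17 without N1, 86 without E1, and 172 and 147 without Y1 and Y2. Of the 45, 24 stood over 5 times higher in another cell class, and the neutrophil genes S100a8, S100a9, Retnlg and Lcn2 were among them. S100a8 had 1695 UMIs in EY1, 1278 of them in 1 cell, and was found in all 64 cells. Fscn1, Ccl22 and Il4i1, genes of migratory dendritic cells that were at 0 in both N libraries, had 92 of 95, 78 of 78 and 60 of 62 UMIs in 1 cell each.

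Without the 6 cells, 10 of the 45 calls of EY against N stood, and no other gene was called. They were Il2ra, Tnfrsf9, Icam1, Isg15, Gadd45g, Mxd1, Ctla2a, AA467197, S100a8 and S100a9. Il2ra differed from N by 1.62 (SE 0.26, adjusted p = 0.0116), at 967 CPM in EY1 against 318 and 336 CPM, and its UMIs lay in 55 of the 64 cells with at most 25 in 1 cell. Tnfrsf9 differed by 1.27 (SE 0.25, adjusted p = 0.0354), at 1454 CPM against 707 and 567 CPM. Icam1, an adhesion molecule and a target of NF-κB, stood at 463 CPM against 120 and 154 CPM. The 12 cells of EY2, which were outside this fit, held 36 UMIs of Tnfrsf9 (752 CPM, without TMM scaling), 10 of Icam1 (209 CPM), 15 of Mxd1 (313 CPM), 51 of Ctla2a (1065 CPM) and 38 of Il2ra (794 CPM). EY2 thus lay below EY1 and near N1 for Tnfrsf9, and above both N libraries for Il2ra. With EY2 admitted, at a minimum of 10 cells per library, 10 genes were called, Il2ra, Isg15 and Gadd45g among them, and Tnfrsf9, Icam1, Mxd1, Ctla2a and AA467197 were not called. S100a8 and S100a9 stayed among the 10, and EY1 was the library where most keratin-low cells met the S100a8 and S100a9 gate. The part of RNA from such cells in the other calls was not tested.

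**Figure D5:**
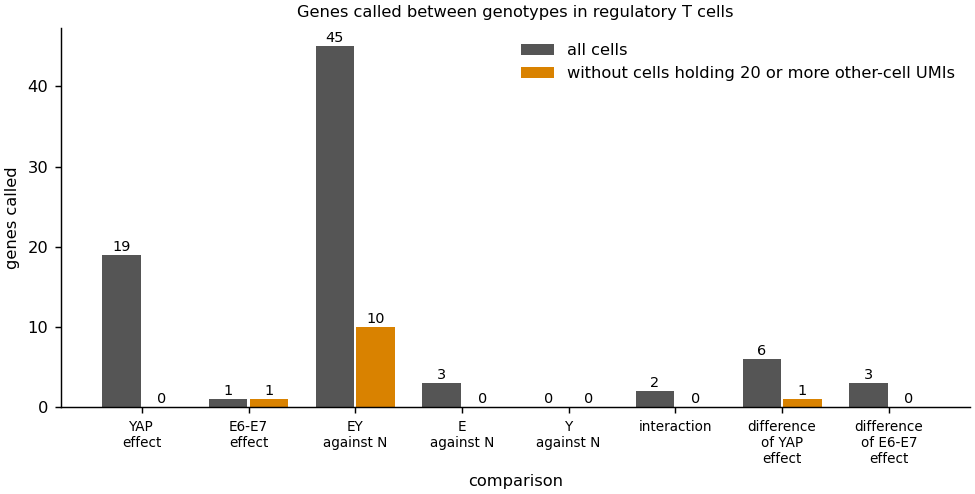
Genes called at an adjusted p under 0.05 in each comparison between genotypes, with all regulatory T cells (grey) and without the 6 cells that hold 20 or more UMIs of 8 genes of other cell types (orange). Calls fell from 19 to 0 for YAP and from 45 to 10 for EY against N, and stayed at 1 for E6-E7.

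Whether both transgenes together did more than their sum was tested as an interaction, which gave 2 calls of 6690 genes (0.0299%, with 341 at an unadjusted p under 0.05), Hbb-bs and Ifitm1. Without N2 or without the 6 cells there were 0, and without E1, E2, Y1 and Y2 there were 6, 3, 26 and 12. The first is a hemoglobin gene of red blood cells. Of the 162 Ifitm1 UMIs in EY1, 155 lay in 1 cell. The interferon-stimulated list had 0 calls there by edgeR and by DESeq2 (7 of 13 genes at an unadjusted p under 0.05), with a median of -2.08 and a negative value for each of the 13. Against Foxp3-negative CD4 T cells the YAP effect differed for 6 of 6721 genes (0.0893%, 4 higher, 0.0595%, and 2 lower, 0.0298%, with 306 at an unadjusted p under 0.05), of which 5 stood over 5 times higher in other cell classes. Without N2 there were 89, without Y2 10, without E1 1 and without EY1 0.

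Tff1 was the exception among the 6. This trefoil factor, a small peptide known from gastric mucus, stood at 1823, 708, 552, 1182, 453, 1310 and 280 CPM in regulatory T cells from N1 to EY1, above Foxp3-negative CD4 T cells in 7 of 7 libraries (9.19 to 618 CPM, log2 1.94, SE 0.31, adjusted p = 0.00019). The YAP effect on Tff1 was lower in regulatory than in Foxp3-negative CD4 T cells by 2.22 (SE 0.34, adjusted p = 0.0057), and by 2.15 without the 6 cells (adjusted p = 0.0055). In the Foxp3-negative class it stood at 237 to 618 CPM with YAP and 9.19 to 233 CPM without it, while in regulatory T cells the levels with and without YAP overlapped. Tff1 was found in 41.7% of thinned regulatory T cells, 9.96% of Foxp3-negative CD4 T cells, 1.35% of CD8 T cells and 0.0286% of epithelial cells.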

How the data were processed

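Single-cell 3′ RNA was measured in 8 libraries of viable cells from tongue epithelium. The authors aligned the reads to mm10 with Cell Ranger 5.0.0 and deposited raw UMI counts per gene and barcode. Doublets were not removed with a caller and free RNA was not subtracted. The members and gene lists were chosen with earlier results of these data known. UMIs were summed per library and class, and CPM are per 1000000 of these UMIs after TMM scaling. Genes were filtered by filterByExpr and tested with edgeR 4.0.16 (quasi-likelihood, R 4.3.3) with Benjamini-Hochberg adjustment over all genes tested, against DESeq2 1.42.0 as an alternative. Genotypes were compared over 7 libraries with at least 20 regulatory T cells, by an additive model of both transgenes or by group means, and cell classes with the library as a block. Shares were compared by exact permutation (Python 3.11.15, scipy 1.17.1). P-values measure the spread between libraries, which the labels do not tie to single animals throughout. Regulatory T cells held 144762 to 835858 UMIs per library (47871 in EY2). In simulated data the YAP fit (5546 genes) recovered 29.5% of genes changed by 1 on the log2 scale and 86.6% of those changed by 2, and the fit against Foxp3-negative CD4 T cells (6370 genes) 74.2% and 98.9%. Named genes were a fixed panel plus, per comparison, the 6 largest rises and falls (12 rises against Foxp3-negative CD4 T cells) of called genes whose mean reached 20 CPM in either arm, with no overlap between arms (for classes, the same sign in every library), and at most 5 times the level in epithelial cells, macrophages or neutrophils. Other genes named are members of the gene lists or were chosen after their values were seen, and some list members are counted but not reported here by name. Of 32285 gene IDs, 99.8% matched GENCODE M21. Promoter sequences are from RefSeq (GRCm38.p6).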

Additional observations from a re-analysis of the deposited data

Results flagged for a closer look

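The following genes were singled out because the effect of a transgene differed between groups by edgeR's quasi-likelihood test (adjusted p under 0.05), either between libraries with and without the other transgene or between regulatory and Foxp3-negative CD4 T cells. EY1 was the single library with both transgenes in these fits.

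The interaction of the transgenes was 3.96 (log2) for Hbb-bs and 8.73 for Ifitm1. Hbb-bs, a hemoglobin gene, had 84 UMIs in 46 cells of EY1 and 117 UMIs in 68 cells of N2. Ifitm1, an interferon-inducible membrane protein, had 162 UMIs in 7 cells of EY1, 155 of them in 1 cell, and 60 UMIs in 1 cell of EY2.

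The YAP effect was higher in regulatory than in Foxp3-negative CD4 T cells for C1qa (by 6.35), Ifitm1 (by 6.16), Ifitm3 (by 2.89) and Ifitm2 (by 2.81), and lower for Saa3 (-6.05) and Tff1 (-2.22). For C1qa, 67 of 76 UMIs in Y2 lay in 1 cell, and all 19 in EY1 lay in 1 cell. The 18 Saa3 UMIs of E1 lay in 1 cell. Ifitm2 was spread more widely, with 132 UMIs in 30 cells of EY1 and at most 46 in 1 cell, as was Ifitm3 with 103 UMIs in 23 cells. Without the 6 cells of mixed content Tff1 was the single call (-2.15).

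The E6-E7 effect was higher in regulatory T cells for Rgs16 (by 2.42), Spp1 (by 6.39) and Ccl22. The fitted difference of Ccl22 (11.997) is no bound, since its 78 UMIs all lay in 1 cell of EY1. Of the 116 Spp1 UMIs in EY1, 99 lay in 1 cell. Rgs16, a regulator of G protein signalling, stood at 56.5, 30.6, 69.0, 156, 25.6, 52.9 and 28.0 CPM from N1 to EY1 in regulatory T cells, and at 118, 59.1, 46.0, 49.1, 18.7, 35.8 and 4.65 CPM in Foxp3-negative CD4 T cells. The last value lies near the floor, in a sum of 242489 UMIs. In regulatory T cells E2 held 125 Rgs16 UMIs, 31 of them in 1 cell, and EY1 held 11, at a level between those of Y1 and Y2. Without the 6 cells none of the 3 was called (0 calls by edgeR).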

How the results depend on the processing

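The genotype comparisons were limited, with 7 libraries of 43 to 132 regulatory T cells each. In simulated data of these library sizes most changes of 1 on the log2 scale were missed in the YAP and E6-E7 fits. Whether depth or the number of libraries set this was not tested. The 2 class comparisons were the steadiest: of the named values, 644 against Foxp3-negative CD4 T cells kept their direction and call and 9 (Batf and Cxcr3 among the genes) lost the call, and against CD8 T cells 711 kept it and 2 lost it. In the YAP comparison 50 kept and 46 lost the call, in E against N 26 and 28, in EY against N 78 and 20, and for E6-E7 9 and 9. No named gene turned its direction. Where a count below moved, the cause was not tested beyond what the setting itself removes.

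Genes called are given in the order YAP, E6-E7, EY against N, Y against N, E against N, interaction, difference of the YAP effect and difference of the E6-E7 effect, with the values 19, 1, 45, 0, 3, 2, 6 and 3 as reported. With no low-count filter they were 260, 128, 224, 86, 80, 68, 27 and 16. With DESeq2 they were 33, 2, 18, 1, 2, 1, 1 and 1. With RLE size factors the YAP count was 30. Thinned to 2000 UMIs per cell, they were 10 for YAP, 0 for E6-E7, 11 for EY against N, 2 for Y against N, 0 for the interaction, and 3 and 1 for the differences, while the counts against CD8 and Foxp3-negative CD4 T cells were 1100 and 540. With at least 2 Foxp3 UMIs, YAP gave 4, E6-E7 2, EY against N 24 and E against N 1. With a Cd4 UMI required, YAP gave 33, E6-E7 6, EY against N 73, Y against N 19, E against N 6, the interaction 18 and the difference of the YAP effect 20. A minimum of 10 cells admitted EY2 and gave 0 for E6-E7, 10 for EY against N, 0 for the interaction and 3 for the difference of the YAP effect. A minimum of 200 genes per cell raised EY2 to 20 cells, so that it entered the fits as well, and gave 0 for E6-E7, 10 for EY against N and 0 for the interaction. Without upper limits on genes and UMIs, E6-E7 gave 2, E against N 0 and the interaction 1.

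Leaving out cells with 2 or more UMIs of other cell types removed EY1, so EY against N and the interaction could not be fitted, and gave 0 for YAP, E6-E7, E against N and the difference of the E6-E7 effect, and 1 for the difference of the YAP effect. Leaving out the 6 cells gave 0 for YAP, 10 for EY against N, 0 for E against N, 0 for the interaction, and 1 and 0 for the differences.

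Leaving out 1 library at a time gave 0 to 36 for YAP, 0 to 19 for E6-E7, 0 to 172 for EY against N, 0 to 26 for Y against N, 0 to 38 for E against N, 0 to 26 for the interaction, 0 to 89 and 0 to 26 for the differences, 1464 to 1893 against CD8 T cells and 580 to 809 against Foxp3-negative CD4 T cells. EY2 was in no gene fit and was not left out there. The same for shares gave differences, in percentage points with minus without the transgene, of -6.40 to -0.123 (YAP) and 0.816 to 7.65 (E6-E7) of T cells, -6.43 to 2.51 and 4.34 to 13.3 of Cd8-negative T cells, and -5.93 to -2.78 and -2.26 to 1.04 of keratin-low cells. The difference with YAP of Cd8-negative T cells, -0.696 as reported, turned to 0.690 without cells of mixed content at 2 UMIs, 0.597 without the 6 cells and 0.198 when thinned, and that with E6-E7 of keratin-low cells, -0.516 as reported, to 2.09, 2.13 and, with Cd4 required, 0.0453.

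No paired analysis was possible because the library numbers follow the order of accessions and do not pair libraries across genotypes. In the class comparisons the library is the replicate block, and without the block 418 genes were called against Foxp3-negative CD4 T cells and 1324 against CD8 T cells.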

Other observations

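Several transcripts not usually listed for T cells were higher in regulatory T cells, and they were chosen after their values were seen unless the rule for named genes gave them. Ighm, the immunoglobulin μ heavy chain gene, stood at 127, 201, 224, 244, 219, 109 and 201 CPM from N1 to EY1, against 16.8 to 55.2 CPM in Foxp3-negative CD4 T cells (log2 2.43, SE 0.19, edgeR adjusted p = 2.2e-08, higher in 7 of 7 libraries). The B cell genes Ms4a1 and Jchain had 0 UMIs in the same cells. After thinning, Ighm was found in 25.7% of regulatory T cells, 4.80% of Foxp3-negative CD4 T cells and 3.54% of CD8 T cells. Ncmap, a myelin-associated protein gene, was higher than in CD8 T cells by 6.05 on the log2 scale.

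Gzma was higher in regulatory than in Foxp3-negative CD4 T cells (log2 2.62, SE 0.59, edgeR adjusted p = 0.0047) and lower than in CD8 T cells (-4.30), the same order of classes as Gzmb. Of 13 hypoxia and glycolysis genes, 3 rose and 0 fell against Foxp3-negative CD4 T cells (Pkm, Bnip3 and Egln3), and 7 rose and 2 fell against CD8 T cells. Summed over the list, regulatory T cells stood at 2883 to 4935 CPM, with the 3 libraries that carried YAP (4224 to 4935 CPM) above the 4 without it (2883 to 3946 CPM). The same held in Foxp3-negative CD4 T cells (3847 to 4339 against 2431 to 2773 CPM) and in CD8 T cells (3272 to 3566 against 1977 to 2068 CPM).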
